A study of Mus musculus with 32 samples.

Results

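The 8 wells described here are the untreated cells of a culture experiment on YUMM3.3, a mouse melanoma line that carries a mutant Braf, taken at 4 hrs and at 12 hrs. They were found by the group in their sample labels, 4 wells for each time, among 32 wells in all. These wells are labelled NT and received neither factor of the experiment. The other 24 wells, which are used only where a comparison needs them, held the same line in the same medium with Activin-A (40 ng/ml), with IFN-γ (20 ng/ml) or with the pair, 4 wells for each treatment and time. All wells were grown in DMEM/F12 with fetal bovine serum, all are of 1 cell line, and nothing in the labels says that they came from separate cultures, so that the spread between them, and each p-value, covers wells only. The labels give no date or batch of harvest: the time and any batch of harvest cannot be told apart.

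mRNA was counted by BRB-seq, in which the cDNA of each sample is tagged by a barcode, samples are pooled, and reads come from the 3′ end of each transcript. Total counts ran from 853021 to 1285540 over the 8 wells and 11362 to 11653 genes had a count, with no difference between the times that exceeded the spread (two-sided exact permutation tests over 4 wells against 4, p = 0.886 and p = 0.914, where the smallest possible p is 0.0286). The share of counts on the mitochondrial genome was 1.38% ± 0.045 (SD, n = 4) at 4 hrs and 1.28% ± 0.0443 at 12 hrs (exact permutation p = 0.0571, 0.214 when adjusted over 5 such measures). Wells of the same group differed by a chi-squared per gene of 1.18 to 1.39 in the untreated groups. Among the other wells, which lend their spread to the tests, replicate 1 of Activin-A at 4 hrs stood apart, with values of 2.45 to 2.89 against the wells of its group where no other pair was above 1.54. All 90 named genes that were called stayed called when that well was left out. The cells carried melanocyte genes, with *Pmel*, a protein of the melanosome, at 116 ± 10.9 CPM (counts scaled to a common library size) at 4 hrs and *Tyrp1*, an enzyme of melanin synthesis, at 90.3 ± 9.92 CPM, and with low *Mitf*, the master regulator of the lineage, at 10.1 CPM. *Kit* and *Ngfr* were not analysed here. The summed markers of leukocytes stayed between 6.56 and 14.6 CPM in all 8 wells, and none of the 6 endothelial markers was in the table.

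A culture that goes on growing in the same medium uses up nutrients, releases products and settles after handling, and its cells read these changes through a few well known circuits. When uncharged tRNA or stress in the endoplasmic reticulum activates a kinase of eIF2α, translation slows and the transcription factor ATF4 is made, which turns on amino acid synthesis, amino acid import and tRNA charging. SREBP factors turn on sterol synthesis when membranes lack cholesterol, NRF2 turns on glutathione and thioredoxin genes, HIF turns on glycolysis in low oxygen, and immediate-early genes such as *Egr1* answer growth factors through ERK within minutes.

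Between 4 and 12 hrs, untreated cells raised many genes of amino acid synthesis, amino acid import and tRNA charging, and fewer of those of sterol synthesis. Over the same interval they lowered the immediate-early genes *Egr1* and *Egr3*, the metallothioneins, glutathione synthesis genes, and some ERK feedback genes. edgeR's quasi-likelihood test, fitted over all 32 wells with a term for each group, called 457 of the 9332 genes tested (4.9%) at a Benjamini-Hochberg adjusted p under 0.05. Of these, 217 were higher at 12 hrs (2.33%) and 240 were lower (2.57%). The count of calls in each list below is to be read beside these shares. Most changes were small: the median absolute log2 fold change (log2FC) of the called genes was 0.48, and 25 of them were higher and 10 lower by at least 2-fold. The 4 wells of one time did not overlap with the 4 of the other for 400 of the called genes. Among all tested genes, groups that did not overlap were found for 518 that were higher (5.55%) and 511 that were lower (5.48%). Since these are bulk samples, more cells that express a gene and more RNA for each cell cannot be told apart.

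**Figure D1:**
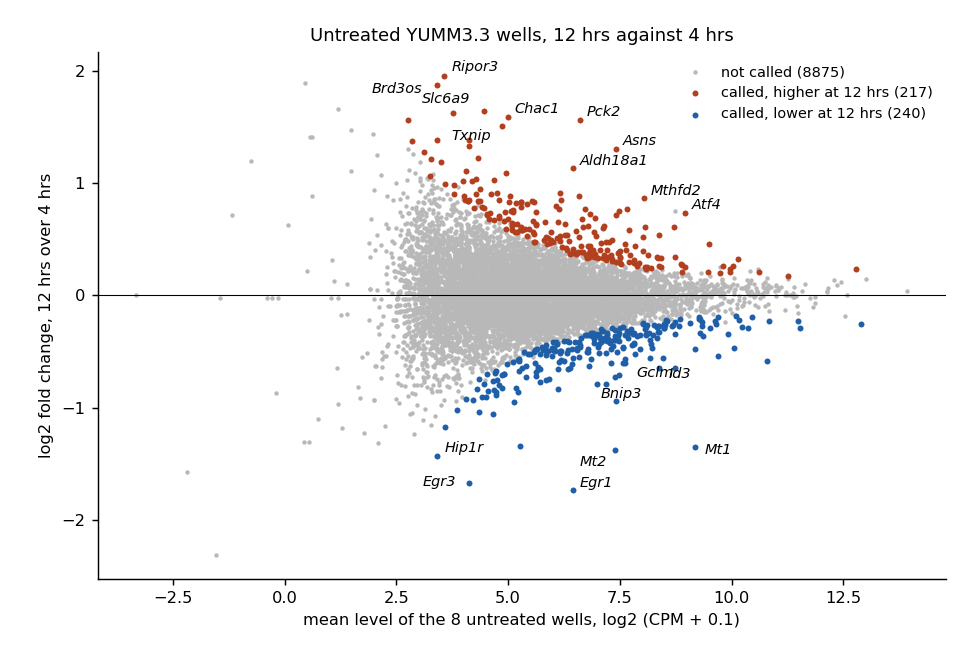
Log2 fold change of each of the 9332 tested genes (12 hrs over 4 hrs, vertical axis) against its mean level in the 8 untreated wells (horizontal axis, log2 of CPM plus a small constant); red points are the 217 genes called higher, blue points the 240 called lower and grey points those not called. Far from 0 at a high level lie *Asns* and *Pck2* above the line and *Mt1*, *Mt2* and *Egr1* below it.

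Of 23 genes listed as targets or partners of ATF4 in the response to amino acid shortage, all were tested, 16 were higher at 12 hrs and 0 were lower. Their median log2FC was 0.61, beside a median of -0.00 over all 9332 genes. The 16 calls were found again with DESeq2, with the 8 wells fitted alone, and in each of the 8 fits that left out 1 untreated well. This list, like those below, was chosen with earlier results of these data known.

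*Asns* (ENSMUSG00000029752), which makes asparagine, was at 96.9, 93.6, 105 and 96.2 CPM in the 4 wells at 4 hrs and at 250, 205, 260 and 254 CPM at 12 hrs. Each well at 12 hrs lay far above every well at 4 hrs, and the log2FC was 1.31 (SE 0.09, adjusted p = 2.14e-20). *Atf4* itself, whose protein is controlled mostly by translation, rose in mRNA, with 356 to 388 CPM in the wells at 4 hrs and 568 to 657 CPM at 12 hrs and a log2FC of 0.74 (SE 0.07, adjusted p = 3.59e-15). *Chac1*, which degrades glutathione, was at 14.8, 13.4, 19.6 and 14.9 CPM at 4 hrs and at 43.0, 44.5, 44.8 and 58.1 CPM at 12 hrs. It had among the highest increases of all genes (log2FC 1.59, SE 0.22, adjusted p = 5.73e-08), and well 4 at 12 hrs stood above the other wells. *Trib3*, a pseudokinase that ATF4 induces and that damps it in turn, rose from 9.77 ± 1.36 to 24.9 ± 6.39 CPM by 12 hrs, with a log2FC of 1.39 (SE 0.26, adjusted p = 1.36e-04).

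Other enzymes of the list that rose lie on the routes of proline, of serine and glycine, and of cysteine. For proline, *Aldh18a1*, the first enzyme from glutamate, was at 49.7 to 58.5 CPM in the wells at 4 hrs and at 112 to 130 CPM at 12 hrs (log2FC 1.13, SE 0.11, adjusted p = 7.50e-13). *Pycr1*, which closes that route, had a log2FC of 0.71 that did not pass the test (adjusted p = 0.184), at a mean of only 13.8 counts. For serine and glycine, *Phgdh*, *Psat1* and *Psph*, the successive steps from 3-phosphoglycerate, rose by a log2FC of 0.44, 0.61 and 0.77, and *Shmt2*, the mitochondrial enzyme that splits serine, by 0.58. *Mthfd2*, which carries the one-carbon unit onward in mitochondria, was at 166 to 206 CPM at 4 hrs and at 277 to 377 CPM at 12 hrs (log2FC 0.86, SE 0.08, adjusted p = 7.79e-14). *Cth*, which makes cysteine from cystathionine, was at 15.3 to 23.6 CPM in the wells at 4 hrs and at 36.8 to 47.6 CPM at 12 hrs (log2FC 1.09, SE 0.19, adjusted p = 2.34e-05).

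Among transporters, *Slc7a5* and its heavy chain *Slc3a2*, which together import large neutral amino acids, rose by 0.61 and 0.40, and *Slc7a1*, the carrier of arginine and lysine, by 0.65 (SE 0.15, adjusted p = 0.00167). *Slc7a11*, the cystine importer that both ATF4 and NRF2 are known to induce, was not called: it was at 29.4 CPM at 4 hrs and at 22.3 CPM at 12 hrs (log2FC -0.43, SE 0.21, adjusted p = 0.275). The transcription factor *Ddit3* (CHOP) had a log2FC of 0.43 (adjusted p = 0.176). Among genes outside the list, *Pck2*, the mitochondrial enzyme that makes phosphoenolpyruvate, was at 51.5, 45.9, 51.2 and 45.6 CPM at 4 hrs and at 147, 120, 144 and 167 CPM at 12 hrs, with no overlap (log2FC 1.56, SE 0.12, adjusted p = 1.27e-17). *Slc6a9*, a glycine transporter, rose from 10.4 ± 3.52 to 33.2 ± 9.82 CPM by 12 hrs, with a log2FC of 1.64 (SE 0.26, adjusted p = 1.95e-06).

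Stress in the endoplasmic reticulum also reaches ATF4, and its other branches have targets of their own. Of 16 such genes, chaperones and folding enzymes for the most part, 0 were called in either direction, beside 4.9% of all tested genes. Their median log2FC was -0.02. At an unadjusted p under 0.05 there were 3 of the 16 (*Pdia6*, *Dnajc3* and *Sel1l*), beside 1637 of all 9332 tested genes, and DESeq2 called 0. The part of such stress in the rise of the ATF4 list was not tested. *Hspa5* (BiP), the main chaperone of the compartment, was at 649 CPM at 4 hrs and at 641 CPM at 12 hrs, and *Hsp90b1* was at 788 ± 35.8 and 823 ± 13.9 CPM.

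Aminoacyl-tRNA synthetases join each amino acid to its tRNA, and separate genes serve the cytosol and the mitochondria. These lists were drawn up after the values of some members had been seen. Of 20 cytosolic synthetases, 13 were higher at 12 hrs and 0 were lower, with a median log2FC of 0.43. *Nars* (asparagine) was at 137, 162, 159 and 135 CPM at 4 hrs and at 240, 255, 237 and 281 CPM at 12 hrs, with a log2FC of 0.77 (SE 0.08, adjusted p = 1.46e-11). *Cars* (cysteine) rose from 67.3 ± 1.86 to 123 ± 14.5 CPM, *Gars* (glycine) from 271 ± 19.9 to 393 ± 23.6 CPM and *Mars* (methionine) from 94.2 ± 9.72 to 152 ± 2.98 CPM, and none of these overlapped between the times. The cytosolic enzymes for aspartate, histidine, lysine, phenylalanine (2 subunits), arginine and tryptophan, *Dars*, *Hars*, *Kars*, *Farsa*, *Farsb*, *Rars* and *Wars*, were not called, with log2FCs from -0.12 to 0.14. Of 15 tested mitochondrial synthetases, 0 were called by edgeR or DESeq2, 1 was at an unadjusted p under 0.05 (*Sars2*), and their median log2FC was 0.04. Leaving out 1 well at a time gave 10 to 13 cytosolic calls, and DESeq2 gave 11.

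ATF4 pairs with C/EBP proteins on a composite DNA element, searched for here by the letters TGATGNAA on either strand. The promoters below are of genes that rose, chosen because they hold the element before the start. Most windows of the called ATF4 list did not hold it. Promoter windows are from RefSeq for build GRCm38.p6, which is not the build of the counts, and run from 250 bases before to 50 after a start site. Of the 12613 windows of the 9828 genes of the table that were matched, 2.32% held the element. It was found in 7 of 25 windows of the ATF4 list (28.0%), which were 4 of 17 windows of called members and 3 of 8 windows of members that were tested and not called. Among the cytosolic synthetases it was found in 5 of 8 windows of called genes (*Aars*, *Gars*, *Iars*, *Tars* and *Yars*) and in 0 of 4 of genes not called, with 12 of the 20 genes matched. A match is a run of letters and not a measured binding site. The 250 bases before the start are given 5′ to 3′ on the strand of the gene, with the element in capitals. The windows are chr6:7693210-7693459 (minus strand) for *Asns*, chr2:119350992-119351241 (plus) for *Chac1*, chr14:55540016-55540265 (plus) for *Pck2* and chr6:55037751-55038000 (plus) for *Gars*.
Asns promoter: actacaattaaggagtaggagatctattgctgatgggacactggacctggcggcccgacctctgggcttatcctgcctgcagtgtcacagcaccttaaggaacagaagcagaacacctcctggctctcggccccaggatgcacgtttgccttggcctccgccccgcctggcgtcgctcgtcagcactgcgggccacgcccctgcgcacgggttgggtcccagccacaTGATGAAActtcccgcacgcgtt
Chac1 promoter: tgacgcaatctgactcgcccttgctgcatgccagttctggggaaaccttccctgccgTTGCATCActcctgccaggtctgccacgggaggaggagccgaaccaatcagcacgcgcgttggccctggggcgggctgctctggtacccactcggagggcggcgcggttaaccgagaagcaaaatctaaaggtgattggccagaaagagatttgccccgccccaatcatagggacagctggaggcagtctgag
Pck2 promoter: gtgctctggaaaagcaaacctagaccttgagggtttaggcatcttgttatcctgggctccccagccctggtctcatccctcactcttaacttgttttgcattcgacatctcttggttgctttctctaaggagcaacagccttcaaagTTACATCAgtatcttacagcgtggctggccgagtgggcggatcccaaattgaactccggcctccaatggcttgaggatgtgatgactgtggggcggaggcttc
Gars promoter: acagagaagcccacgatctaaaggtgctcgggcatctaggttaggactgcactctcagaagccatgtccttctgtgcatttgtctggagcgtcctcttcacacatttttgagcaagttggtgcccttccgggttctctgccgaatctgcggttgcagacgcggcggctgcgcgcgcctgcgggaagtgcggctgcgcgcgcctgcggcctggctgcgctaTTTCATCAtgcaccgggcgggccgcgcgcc
The element began 23 bases before the start in *Asns*, 193 in *Chac1*, 103 in *Pck2* and 30 in *Gars*, and 14 bases after the start in *Trib3*. In *Asns* it stood on the strand of the gene, and in the other 3 printed promoters on the opposite strand.

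**Figure D2:**
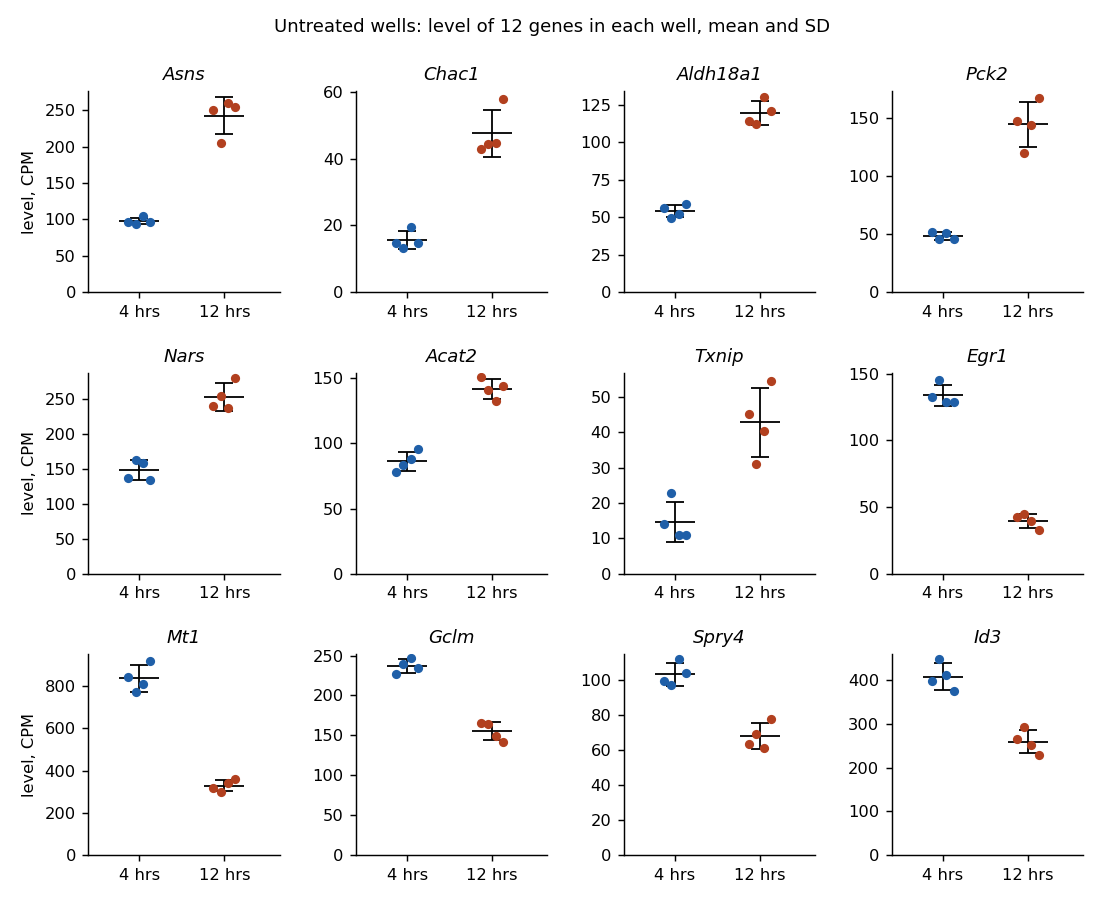
Level of 12 genes in CPM (vertical axes, from 0) in the 4 untreated wells at 4 hrs (blue points) and the 4 at 12 hrs (red points), with the mean (bar) and SD (whiskers). No well at 12 hrs overlaps with a well at 4 hrs in any panel: *Asns*, *Chac1*, *Aldh18a1*, *Pck2*, *Nars*, *Acat2* and *Txnip* are higher at 12 hrs, and *Egr1*, *Mt1*, *Gclm*, *Spry4* and *Id3* are lower.

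Of 24 tested genes of sterol synthesis and uptake, 8 were higher at 12 hrs (33.3%, beside 2.33% of all tested genes) and 0 were lower. A positive log2FC was seen in 21, with a median of 0.28 beside -0.00 over all genes. The other 16 were not called, among them *Hmgcs1*, *Insig1*, *Cyp51*, *Msmo1*, *Mvd* and *Srebf2*. *Acat2*, a thiolase at the entry to the pathway, was at 77.7, 83.1, 88.3 and 95.2 CPM at 4 hrs and at 150, 141, 132 and 144 CPM at 12 hrs (log2FC 0.73, SE 0.11, adjusted p = 3.06e-07). *Lss*, which closes the sterol rings, rose from 33.5 ± 9.67 to 58.4 ± 10.9 CPM by 12 hrs, with a log2FC of 0.84 (SE 0.17, adjusted p = 3.78e-04), and *Nsdhl* from 38.2 ± 3.12 to 59.6 ± 4.81 CPM. *Fdft1* and *Sqle*, the committed steps to squalene and its epoxide, rose by a log2FC of 0.41 and 0.31. The count of 8 fell to 5 with DESeq2 and to 5 without replicate 2 at 4 hrs. Of 13 fatty acid genes 3 were higher (*Scd2*, *Fads1* and *Acss2*), and the count was 0 without replicate 1 at 12 hrs and 1 without replicate 3 at 12 hrs or without replicates 3 or 4 at 4 hrs.

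*Txnip*, an inhibitor of glucose uptake that is induced by the glucose sensor MondoA, was at 14.0, 22.9, 10.9 and 10.9 CPM at 4 hrs and at 45.3, 31.1, 40.4 and 54.6 CPM at 12 hrs, with no overlap (log2FC 1.51, SE 0.22, adjusted p = 2.53e-07). Over the list of 15 tested genes linked to FOXO factors and MondoA, 3 were higher and 2 were lower. *Irs2*, an adaptor of the insulin receptor, and *Tsc22d3* (GILZ) rose by 0.66 and 0.63, whereas *Arrdc3*, an arrestin related to *Txnip*, fell by 0.82 and *Sgk1* by 0.36 on the log2 scale. Without replicate 2 at 4 hrs only 1 of the 3 was called higher. The 2 that were lower became 0 without replicate 1 at 12 hrs and 1 without replicate 1 or 2 at 4 hrs.

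*Egr1* had the largest decrease of the genes named by rule. It was at 133, 145, 129 and 129 CPM at 4 hrs and at 42.2, 44.5, 39.4 and 32.5 CPM at 12 hrs, a 3.33-fold difference (log2FC -1.74, SE 0.13, adjusted p = 3.87e-18). *Egr3*, of the same family of zinc finger factors, was at 24.0 to 31.5 CPM at 4 hrs and at 3.28 to 10.7 CPM at 12 hrs (log2FC -1.67, SE 0.27, adjusted p = 2.67e-06), where the lowest well had 3 counts. *Nab2*, a corepressor that EGR factors induce, chosen here after its value was seen, fell from 230 to 151 CPM (log2FC -0.60, adjusted p = 8.20e-08). Of the 22 tested immediate-early and AP-1 genes, 4 were lower and 0 were higher. The other 2 were *Junb* (log2FC -0.95, SE 0.20, adjusted p = 0.00106), with wells that overlapped, and *Ier2* (log2FC -0.49, SE 0.14, adjusted p = 0.0225), which was not called in 4 of the 8 fits that left out a well.

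Other members of the immediate-early list did not pass the test. *Fos* was at 2.40 and 3.07 CPM, too low to be tested. *Jun* had a log2FC of 0.07, *Fosl1* of -0.07, *Myc* of 0.15 and *Klf4* of 0.02, and none of these 4 was called. The list of MAPK feedback holds genes that ERK induces, some of which restrain it, and 4 of 14 were lower and 0 were higher. *Spry4*, a Sprouty inhibitor, was at 97.5 to 112 CPM at 4 hrs and at 61.2 to 77.8 CPM at 12 hrs (log2FC -0.61, SE 0.12, adjusted p = 3.96e-04). The ERK phosphatase *Dusp6* fell from 219 ± 14.4 to 160 ± 3.86 CPM by 12 hrs, with a log2FC of -0.46 (SE 0.09, adjusted p = 5.70e-04) and *Dusp5* from 173 ± 9.82 to 120 ± 12.8 CPM, while *Ccnd1* and the ETS factors *Etv1*, *Etv4* and *Etv5* had log2FCs between 0.03 and 0.22 and were not called.

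*Mt1*, a metallothionein, which binds zinc and copper, had the lowest p-value in the table. It was at 845, 771, 809 and 920 CPM at 4 hrs and at 321, 298, 340 and 361 CPM at 12 hrs (log2FC -1.35, SE 0.07, adjusted p = 3.07e-30). *Mt2* followed it with 280, 269, 268 and 156 CPM against 92.9, 81.9, 116 and 87.1 CPM (log2FC -1.38, SE 0.14, adjusted p = 2.86e-13), although reads shared between these related genes were not assessed. Both were placed in the list of NRF2-linked antioxidant genes, of which 7 of 17 tested were lower and 0 were higher. The others included both subunits of the enzyme that limits glutathione synthesis. The catalytic subunit *Gclc* fell from 75.3 ± 4.36 to 45.1 ± 9.64 CPM by 12 hrs, with a log2FC of -0.75 (SE 0.14, adjusted p = 9.66e-05), and the modifier subunit *Gclm* was at 227 to 246 CPM at 4 hrs and at 142 to 166 CPM at 12 hrs (log2FC -0.60, SE 0.08, adjusted p = 1.08e-07). *Txnrd1*, *Srxn1* and *Gsr*, which reduce thioredoxin, oxidized peroxiredoxin and glutathione, fell by 0.41, 0.50 and 0.22 on the log2 scale. The classical targets *Nqo1* and *Hmox1* had log2FCs of -0.30 (adjusted p = 0.271) and -0.10 (adjusted p = 0.900).

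**Figure D3:**
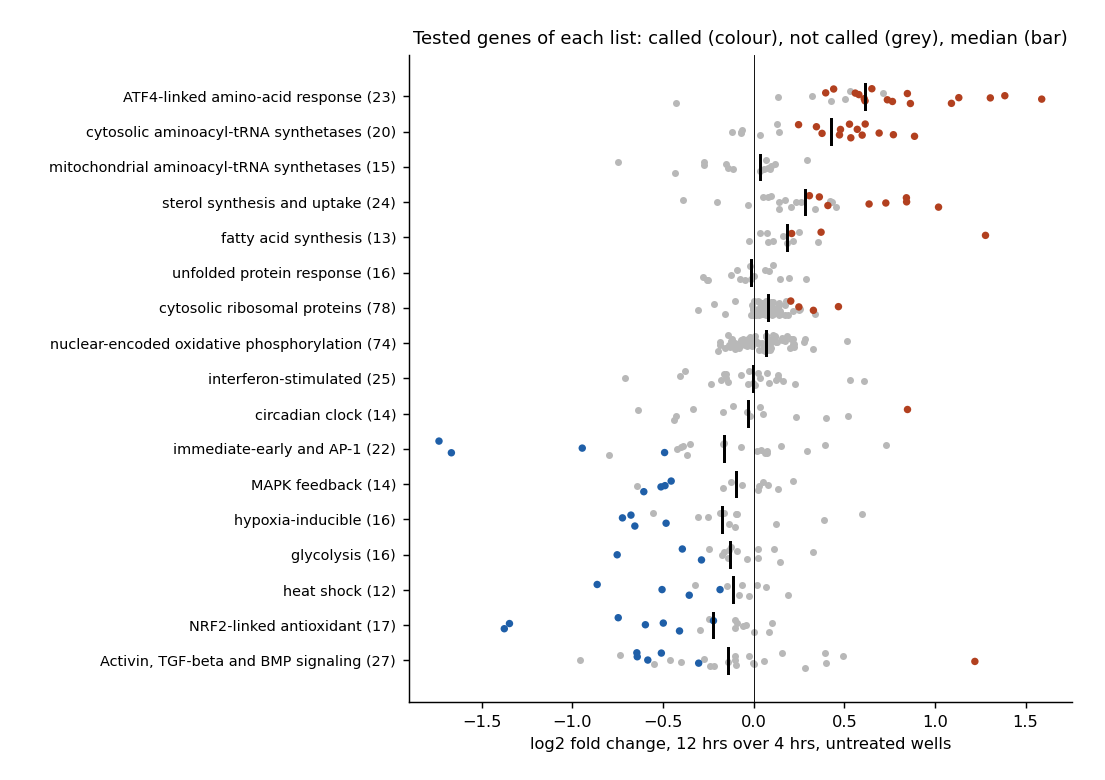
Log2 fold change (12 hrs over 4 hrs, untreated wells; horizontal axis) of the tested genes of 17 lists, with their number in parentheses; red and blue points were called higher and lower, grey points were not called, and the bar is the median of the list. The ATF4 list has 16 of 23 points in red, and the NRF2-linked list has 7 of 17 in blue with both metallothioneins far to the left.

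Of 16 tested genes that hypoxia induces through HIF, 4 were lower and 0 were higher, with a median log2FC of -0.17. *Bnip3*, a receptor for mitophagy, fell from 210 ± 22.6 to 127 ± 9.02 CPM by 12 hrs, with a log2FC of -0.72 (SE 0.10, adjusted p = 4.16e-08) and *Higd1a* from 63.7 ± 8.92 to 40.6 ± 6.09 CPM, whereas *Vegfa* and *Pdk1* had log2FCs of -0.16 and -0.10 and were not called. The count was 2 with DESeq2 and 2 without replicate 1 or replicate 4 at 12 hrs. Among 16 glycolysis genes, 3 were lower, and these were the glucose transporter *Slc2a1*, *Ldha*, which makes lactate, and the lactate exporter *Slc16a3*. *Slc16a3* was at 60.2 to 81.8 CPM at 4 hrs and at 40.6 to 47.0 CPM at 12 hrs (log2FC -0.75, SE 0.15, adjusted p = 2.45e-04). *Ldha* was at 3111 to 3339 CPM at 4 hrs and at 2594 to 2758 CPM at 12 hrs (log2FC -0.29, SE 0.05, adjusted p = 1.12e-05). The enzymes between them in the pathway, such as *Gapdh* (log2FC 0.02) and *Pgk1* (log2FC -0.04), were not called.

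Of 12 tested heat shock genes 4 were lower and 0 were higher. *Hspa1b*, the inducible HSP70, was at 25.3 to 40.3 CPM at 4 hrs and at 12.8 to 26.7 CPM at 12 hrs (log2FC -0.86, SE 0.21, adjusted p = 0.00525), although reads shared with its near-identical neighbor *Hspa1a* were not assessed. *Hsph1*, a nucleotide exchange factor for HSP70, fell from 127 ± 18.2 to 89.7 ± 7.87 CPM by 12 hrs, with a log2FC of -0.51 (SE 0.11, adjusted p = 0.00177). The cytosolic chaperones *Hsp90aa1* and *Hsp90ab1* had log2FCs of -0.07 and 0.07 and were not called. Without replicate 1 at 12 hrs the count was 2. The paired unit that heat shock factor recognizes, GAANNTTC (the same on both strands), was found in 10 of 16 windows of the list (62.5%) and in 5.67% of all windows. In called genes it was in 4 of 6 windows and in genes not called in 4 of 8. Other elements were also searched for, and not all are given. The sterol element TCACNCCAC was in 0 of 7 windows of called sterol genes and 1 of 12 not called (1.13% of all). TGANTCA, TGACGTCA and CATATTAGG were in 0 of the 1 matched window of called immediate-early genes. The hypoxia core ACGTG was in 3 of 6 windows of called hypoxia genes and in 8 of 13 of those not called (25.2% of all). The NRF2 core TGACNNNGC was in 4 of 7 windows of called NRF2-linked genes and in 3 of 11 of those not called (14.1% of all). The promoter of *Hspa1b* (chr17:34959239-34959488, minus strand, 250 bases before the start) is given with the heat shock unit in capitals, which began 104 bases before the start.
Hspa1b promoter: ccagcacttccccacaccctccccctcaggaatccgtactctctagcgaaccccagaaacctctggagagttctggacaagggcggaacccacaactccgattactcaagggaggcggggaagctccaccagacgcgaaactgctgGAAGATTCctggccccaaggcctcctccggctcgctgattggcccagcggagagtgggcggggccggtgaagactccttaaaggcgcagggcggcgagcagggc

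Activin-A is the factor the study adds to other wells, and YUMM3.3 cells make some of its transcript themselves. *Inhba*, which encodes the Activin-A subunit, was at 95.1, 103, 83.9 and 78.4 CPM at 4 hrs and at 59.1, 52.5, 63.4 and 68.5 CPM at 12 hrs (log2FC -0.58, SE 0.12, adjusted p = 6.50e-04). Its antagonist *Fst* (follistatin) was at 671 and 610 CPM and was not called. *Id1* and *Id3*, which BMP signals induce through SMADs, fell by 0.64 each on the log2 scale, with *Id3* at 374 to 447 CPM at 4 hrs and at 229 to 292 CPM at 12 hrs (adjusted p = 6.05e-09). The ligand *Bmp4* moved the other way, from 11.9 ± 4.45 to 27.8 ± 5.59 CPM by 12 hrs, with a log2FC of 1.22 (SE 0.26, adjusted p = 0.00101), and *Bmp2* fell by 0.30 on the log2 scale. Over the 27 tested genes of Activin, TGF-β and BMP signaling, 5 were lower and 1 was higher, and no receptor or SMAD was among them. *Ccn2* (CTGF), a target of YAP and of TGF-β, rose from 77.8 ± 12.6 to 133 ± 11.7 CPM by 12 hrs, with a log2FC of 0.77 (SE 0.11, adjusted p = 5.79e-07), and *Thbs1* fell from 732 ± 43.9 to 572 ± 31.0 CPM. These were the only calls of 13 tested YAP-linked genes, 1 higher and 1 lower (7.69% each), and the other 11 were not called.

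IFN-γ is the other factor of the experiment, and in the wells without it no interferon-stimulated gene was called. Of 25 tested, 0 were higher and 0 were lower in edgeR's test or in DESeq2, where edgeR called 4.9% of all tested genes. At an unadjusted p under 0.05 there were 6, and the median log2FC was -0.00. *B2m*, the light chain of MHC class I, was at 2585 to 2665 CPM at 4 hrs and at 2444 to 2905 CPM at 12 hrs, and *H2-D1* was at 271 ± 6.40 and 266 ± 32.3 CPM. Among inflammatory genes, *Ptgs2* (COX-2), which makes prostaglandin precursors, was at 220, 226, 207 and 239 CPM at 4 hrs and at 107, 121, 116 and 125 CPM at 12 hrs (log2FC -0.94, SE 0.09, adjusted p = 8.19e-14), and the alarmin *Il33* was at 186 to 229 CPM at 4 hrs and at 316 to 342 CPM at 12 hrs (log2FC 0.61, SE 0.08, adjusted p = 2.72e-08). These were the 2 called genes of 14 tested in the NF-κB and cytokine list. *Timp1*, an inhibitor of metalloproteinases, fell from 2136 ± 71.7 to 1425 ± 85.3 CPM by 12 hrs, with a log2FC of -0.58 (SE 0.05, adjusted p = 6.50e-15). On the log2 scale, *Timp3* fell by 0.34 and *Sparc* rose by 0.17. With *Timp1*, these were the only calls of 23 tested extracellular matrix genes, 1 higher (4.35%) and 2 lower (8.7%). The call of *Timp3* was absent with DESeq2 and without any 1 well other than replicate 2 at 12 hrs or replicate 4 at 4 hrs, and that of *Sparc* was absent without replicates 1 or 2 at 12 hrs or replicates 1 or 4 at 4 hrs.

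Some genes of the growth and lineage lists were called. Over all tested genes, 2.33% were called higher and 2.57% lower. The shares were 11.1% lower for DNA replication, 3.7% higher and 3.7% lower for mitosis, and 7.69% lower for the lineage list. Of 27 DNA replication genes 3 were lower and 0 were higher: *Rrm1* and *Rrm2*, the subunits of ribonucleotide reductase, by 0.27 and 0.28 on the log2 scale, and *Ccne1*, cyclin E1, by 0.65. The count fell to 1 without replicate 1 at 12 hrs or without replicate 1 or 4 at 4 hrs. Of 27 mitosis genes *Ccnb2* was higher (log2FC 0.36) and *Cdk1* lower (log2FC -0.24), the latter not called without replicates 1 or 2 at 12 hrs or replicates 2 or 3 at 4 hrs. Of 16 tested p53 targets 1 was lower (6.25%) and 0 were higher. It was *Cdkn1a* (p21), which arrests the cycle, at 147, 147, 147 and 175 CPM against 102, 122, 115 and 89.4 CPM (log2FC -0.52, SE 0.11, adjusted p = 6.28e-04). Among 78 tested ribosomal proteins, 4 were higher (5.13%, beside 2.33% of all tested genes). A positive log2FC was seen in 69, with a median of 0.08 beside -0.00 over all genes. The share of all counts on ribosomal proteins was 9.75% ± 0.231 at 4 hrs and 10.3% ± 0.304 at 12 hrs (two-sided exact permutation p = 0.0857, n = 4). With the 8 wells fitted alone, 10 were called higher, and without replicate 1 at 4 hrs or replicate 3 at 12 hrs only 2 were. Of 74 nuclear genes of oxidative phosphorylation, 0 were called by edgeR or DESeq2 and 7 were at an unadjusted p under 0.05.

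Of 13 tested lineage genes only *Tfap2a*, a neural crest factor, was lower (log2FC -0.48, SE 0.15, adjusted p = 0.0352), and not without replicates 1 or 2 at 12 hrs or replicates 1, 2 or 4 at 4 hrs. The pigment genes *Dct* (72.2 ± 12.9 and 71.6 ± 9.15 CPM) and *Pmel* (116 ± 10.9 and 118 ± 13.9 CPM) overlapped between the times. The summed level of the 18 lineage genes in the table (20 were listed) was 755 to 801 CPM at 4 hrs and 649 to 750 CPM at 12 hrs. The part of this lower sum in the other results was not tested. The summed markers of fibroblasts and pericytes, for the most part *Cspg4*, which melanoma cells also express, were at 86.1 to 102 CPM and at 80.1 to 107 CPM.

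The clock genes were examined because the labelled times lie 8 hrs apart. The labels do not give the time of day at harvest. *Per1*, *Per3*, *Cry1*, *Cry2*, *Arntl* (Bmal1), *Nr1d1*, *Nr1d2* and *Dbp* were not called. *Nr1d1* was at 37.7 ± 4.74 and 36.8 ± 8.93 CPM, *Dbp* at 50.4 ± 6.21 and 47.4 ± 6.95 CPM, and *Arntl* at 29.6 ± 7.62 and 35.8 ± 5.57 CPM. *Per1*, *Per3* and *Cry2* had mean levels of 7.54 to 14.5 CPM and log2FCs of 0.05 (SE 0.39), 0.52 (SE 0.34) and 0.40 (SE 0.36), so that these intervals are wide. *Nfil3*, a repressor of the D-box, was the 1 gene of 14 that was called (log2FC 0.85, SE 0.25, adjusted p = 0.0254), with wells that overlapped, and the call was absent with DESeq2 (adjusted p = 0.0772) and without replicates 1 or 3 at either time.

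The treated wells give the same interval in 3 further sets of 8 wells that share no well with the untreated set. Their labelled times are the same, and whether they shared a harvest is not stated. From 4 to 12 hrs, 649 genes were called in the Activin-A wells (6.95% of those tested, 3.33% higher and 3.62% lower), 785 in the IFN-γ wells (8.41%, 4.84% and 3.57%) and 657 in wells given both factors (7.04%, 3.62% and 3.42%). Of the 457 genes called in untreated wells, 237 (51.9%) were also called with Activin-A, where they were 36.5% of the calls, and all 237 moved in the same direction. With IFN-γ there were 216 shared calls (47.3% of the untreated and 27.5% of the IFN-γ calls), of which 215 moved in the same direction, and with both factors 181 (39.6% and 27.5%), of which 177 did. A change of the same sign, called or not, was seen for 440 of the 457 genes (96.3%) with Activin-A, 431 (94.3%) in IFN-γ wells and 397 (86.9%) in wells with the pair, where over all tested genes the shares were 65.6%, 65.7% and 62.3%. In all 4 sets 117 genes were called, of which 59 rose in each, 57 fell in each and 1 changed direction.

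Most genes of the ATF4 list were higher at 12 hrs in each set, 18 of 23 in the Activin-A wells, 19 in the IFN-γ wells, 17 with the pair and 0 lower in any, at medians of 0.71, 0.73 and 0.67. *Asns* had log2FCs of 1.67 (SE 0.09), 1.49 (SE 0.09) and 1.43 (SE 0.09) in these sets beside 1.31 in untreated wells, and *Pck2* of 1.66, 1.77 and 1.81 beside 1.56. The NRF2-linked list had 8, 8 and 7 genes lower and 0 higher, and *Egr1* fell in each set, with a log2FC of -1.83 in the Activin-A wells, -1.06 with IFN-γ and -1.11 with the pair. The 8 sterol genes called higher in untreated wells compare with 8 in the Activin-A wells, 3 in the IFN-γ wells and 4 with the pair. The difference between the sets in the time effect of a list was not tested.

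**Figure D4:**
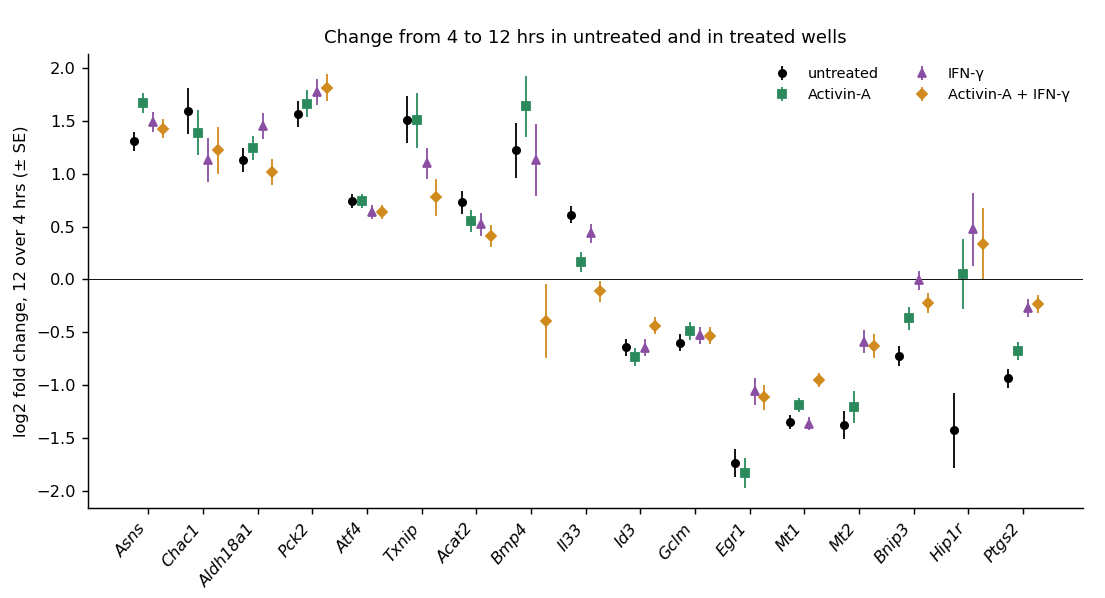
Log2 fold change from 4 to 12 hrs (vertical axis, points with SE whiskers from edgeR) of 17 genes in untreated wells (black circles) and in wells with Activin-A (green squares), IFN-γ (purple triangles) or both (orange diamonds). *Asns*, *Pck2*, *Atf4*, *Gclm* and *Egr1* change in the same direction in all 4 sets, whereas *Bmp4* and *Il33* are below 0 with both factors and *Bnip3* is near 0 with IFN-γ.

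Where the time effect itself differed from that of untreated wells, tested as an interaction over all genes, 2 genes were called for Activin-A (0.0214% of those tested, all with a higher effect), 54 for IFN-γ (0.579%, with 0.439% higher and 0.139% lower) and 84 for both factors (0.900%, with 0.536% higher and 0.364% lower). At an unadjusted p under 0.05 there were 569, 689 and 821. Of the 457 genes called in untreated wells, 0, 14 and 27 were among them. Those for Activin-A were *Acta2*, smooth muscle actin (log2FC 0.17 untreated and 0.66 with Activin-A, difference 0.50, SE 0.09, adjusted p = 0.00741), and *Bgn*, the matrix proteoglycan biglycan (difference 0.49, SE 0.10, adjusted p = 0.0107). Neither was called without replicate 1 of Activin-A at 12 hrs (adjusted p = 0.0600 and 0.172) or without untreated replicate 2 at 4 hrs (adjusted p = 0.0520 for each). *Bgn* was also not called with DESeq2 (adjusted p = 0.0501), without replicates 2 or 3 of Activin-A at 4 hrs or without untreated replicate 4 at 4 hrs.

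With IFN-γ, the MHC class I genes rose between 4 and 12 hrs and were not called in untreated wells, as for *H2-K1* (log2FC -0.18 untreated and 1.60 with IFN-γ, difference 1.78, SE 0.10, adjusted p = 2.89e-25), where reads common to several class I genes were not assessed. Genes that fell in untreated wells and had a higher time effect with IFN-γ were *Bnip3* (-0.72 and -0.01, difference 0.72, SE 0.13, adjusted p = 4.05e-04), *Ptgs2* (-0.94 and -0.27, difference 0.67, SE 0.13, adjusted p = 4.29e-04), *Mt2* (-1.38 and -0.59, difference 0.78, SE 0.18, adjusted p = 0.00713) and *Cdkn1a* (-0.52 and 0.08, difference 0.59, SE 0.15, adjusted p = 0.0420). Of these 4, *Mt2* and *Ptgs2* were called lower with IFN-γ and *Bnip3* and *Cdkn1a* were not called. With both factors, the time effect of *Il33* was lower (log2FC 0.61 untreated and -0.11 with both, the latter not called, difference -0.73, SE 0.13, adjusted p = 7.38e-05) and the time effect of *Sparc* was lower (log2FC 0.17 untreated, a call that rested on single wells, and -0.31 with both, difference -0.48, SE 0.07, adjusted p = 6.33e-07).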

How the data were processed

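BRB-seq counts of all 32 wells were used, 8 of them untreated. The authors deposited raw read counts per gene, as integers without normalization; the submitters' processing notes name STAR 2.7.10b, featureCounts, DESeq2 1.36.0 and build GRCm39 (mm39), while the gene annotation and the handling of molecular identifiers and of strand are not given in the sources used here. The table held 12451 genes, each with a count in at least 4 samples, and 12437 were matched to a symbol in GENCODE M21. Counts were filtered with filterByExpr, scaled with TMM factors and fitted with edgeR 4.0.16 (glmQLFit and glmQLFTest, R 4.3.3) over the 8 groups, with Benjamini-Hochberg adjustment over 9332 genes and a threshold of 0.05. CPM are TMM-scaled and SE is the log2FC divided by the square root of F. Fold changes of genes with few counts depend on the prior count. At the depths of the untreated wells 3 counts corresponded to 2.33 to 3.52 CPM, a floor for counting error only. Alternatives were DESeq2 1.42.0, other scalings and filters, stricter thresholds, a replicate block, the 8 wells alone and each untreated well left out. In 1 alternative, added after the data were seen, the Activin-A well that stood apart at 4 hrs was left out of the estimate of spread. The scripts were tested on simulated counts.

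The untreated wells, the 29 gene lists and the tests were chosen with earlier results of these data known, and 4 more lists (cytosolic and mitochondrial synthetases, SR factors and EGF-family ligands) were added after values were seen. Genes were named by rule: the 10 largest increases and the 10 largest decreases (log2FC) among called genes with at least 10 counts on average, up to 4 called genes for each list with the lowest p, lineage markers, clock genes, and up to 3 genes for each difference in time effects. Other members of a list are named beside its count, and were chosen after their values were seen. Same-numbered wells did not deviate together (mean correlation 0.01 over the pairs of groups), so that no pairing was used. Promoters were searched on both strands in RefSeq windows of GRCm38.p6, and no gene coordinates are given, since the counts use another build.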

Additional observations from a re-analysis of the deposited data

Results flagged for a closer look

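In 262 groups of 4 untreated wells (the named genes and the well measures at each time), 10 had a well that stood apart by Dixon's criterion, and chance alone gives about 1 in 20. Replicate 4 at 4 hrs was the well in 4 of them: *Mt2* was at 156 CPM there and at 268 to 280 in the other wells, *Dusp5* at 188 CPM (others 168), *Cdkn1a* at 175 CPM (others 147) and *Sox10* at 29.8 CPM (others 13.1 to 14.8). At 4 hrs, *Ccnb2* was at 211 CPM in replicate 3 (others 173 to 179). At 12 hrs, *Chac1* was at 58.1 CPM in replicate 4 (others 43.0 to 44.8), *Lyz2* at 5.47 CPM in replicate 3 (others 8.01 to 8.44), *Yars2* at 56.8 CPM in replicate 1 (others 37.2 to 39.5) and *Srsf3* at 281 CPM in replicate 2 (others 236 to 243). The share of counts on the 20 highest genes was 10.7% in replicate 2 at 12 hrs, the lowest of its group. *Mt2*, *Dusp5*, *Cdkn1a*, *Chac1*, *Ccnb2* and *Srsf3* were called in each of the 8 fits that left out 1 well.

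Differences between the time effect in treated and in untreated wells, tested as an interaction in edgeR with adjustment over all genes, are given as log2FC in treated wells minus log2FC in untreated wells. With Activin-A these were 0.50 for *Acta2* (adjusted p = 0.00741) and 0.49 for *Bgn* (adjusted p = 0.0107). With IFN-γ they were 1.90 for *Hip1r* (adjusted p = 0.0451), 0.78 for *Mt2* (adjusted p = 0.00713), 0.72 for *Bnip3* (adjusted p = 4.05e-04), 0.59 for *Cdkn1a* (adjusted p = 0.0420) and 0.67 for *Ptgs2* (adjusted p = 4.29e-04). For the class I genes with IFN-γ they were 0.75 for *B2m* (adjusted p = 7.40e-15), 1.36 for *H2-D1* (adjusted p = 1.95e-18) and 1.78 for *H2-K1* (adjusted p = 2.89e-25), and for *Sparc* -0.31 (adjusted p = 0.00770).

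With both factors the differences were 0.74 for *Mt2* (adjusted p = 0.0150), 0.40 for *Mt1* (adjusted p = 0.0113), 1.04 for *Cavin4* (adjusted p = 0.0430), 0.65 for *Spry2* (adjusted p = 0.0449), 0.50 for *Bnip3* (adjusted p = 0.0451) and 0.70 for *Ptgs2* (adjusted p = 7.38e-05). They were negative for *Il33* (-0.73, adjusted p = 7.38e-05), *Bmp4* (-1.61, adjusted p = 0.0472) and *Sparc* (-0.48, adjusted p = 6.33e-07). *Acta2* differed by 0.40 (adjusted p = 0.00933), *B2m* by 0.69 (adjusted p = 3.08e-13), *H2-D1* by 1.18 (adjusted p = 4.79e-15) and *H2-K1* by 1.59 (adjusted p = 4.17e-22). *Mt2*, *Bnip3* and *Ptgs2* fell in untreated wells, and their differences were positive both with IFN-γ and with both factors, while that of *Mt1* was -0.02 with IFN-γ (adjusted p = 0.991).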

How the results depend on the processing

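Of the 90 named genes that were called, 61 were called in each of the 8 fits that left out 1 untreated well and 29 were lost in at least 1, with no reversal. Of the 217 genes higher and 240 lower at 12 hrs, 104 and 130 were at an adjusted p under 0.01 and 123 and 93 had an absolute log2FC of at least 0.5. DESeq2 called 119 higher and 165 lower. Of the 90 named calls, 74 were also called by DESeq2 and 11 missed its threshold. The rest, *Ripor3* and *Brd3os* among them, had no adjusted p from DESeq2. Leaving out 1 untreated well gave 141 to 173 higher (141 without replicate 1 at 12 hrs) and 161 to 207 lower. The replicate block gave 201 and 228, RLE scaling 215 and 235, total counts 220 and 238, the 8 wells alone 297 and 303, and the spread estimated without the Activin-A well that stood apart 250 and 276. Same-numbered untreated wells did not deviate together, and the block changed 1 named call.

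The 649 calls with Activin-A became 359 at an adjusted p under 0.01, 322 with the minimum log2FC, 410 with DESeq2, 423 with their own wells alone and 492 to 622 without 1 well. The 785 with IFN-γ became 433, 422, 501 with DESeq2, and 599 to 677 without 1 well, and the 657 with both 358, 357 and 496 to 565. The differences in time effect became 1, 0 and 1 (DESeq2) for Activin-A and 0 to 3 without 1 well, 32 at an adjusted p under 0.01 and 35 to 54 for IFN-γ, and 45 and 56 to 76 for both. Without 1 well, the difference in total counts ran from -63591.8 to 80581.2 and that in genes detected from -40.1 to 56.9, the mitochondrial share from -0.127 to -0.0895 percentage points, the ribosomal share from 0.440 to 0.680 and the share of the 20 highest genes from 0.0902 to 0.183.

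Among genes that were not called, the sign of the log2FC turned in fits without 1 well, with ranges over the 8 fits of -0.0173 to 0.0634 (*B2m*), -0.113 to 0.0446 (*H2-D1*), -0.0389 to 0.260 (*Hist1h2bc*), -0.0886 to 0.0519 (*Cspg4*), -0.135 to 0.0583 (*Dct*), -0.0432 to 0.0804 (*Pmel*), -0.290 to 0.181 (*Sox10*), -0.0587 to 0.139 (*Nes*), -0.455 to 0.246 (*Per1*) and -0.220 to 0.116 (*Nr1d1*).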

Other observations

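SR proteins bind exonic enhancers and recruit the spliceosome. In a list drawn up after values were seen, 4 of 10 tested SR factors were lower at 12 hrs and 0 were higher: *Srsf3* was at 317 to 371 CPM at 4 hrs and at 236 to 281 CPM at 12 hrs (log2FC -0.43, SE 0.08, edgeR adjusted p = 3.18e-05), and *Srsf2*, *Srsf6* and *Srsf1* had log2FCs of -0.34, -0.35 and -0.28. Each of the 4 was called without any 1 well. *Srsf7*, *Srsf9*, *Srsf10* and *Srsf11* had log2FCs between -0.05 and 0.05. EGF-family ligands, which act on EGFR upstream of ERK, were also lower in 3 of 5 tested, in a list made in the same way. *Ereg* was at 217, 201, 233 and 235 CPM at 4 hrs and at 134, 145, 120 and 142 CPM at 12 hrs (log2FC -0.71, SE 0.10, edgeR adjusted p = 3.24e-08), *Areg* fell by 0.36 and *Hbegf* by 0.29 on the log2 scale, and *Btc* had a log2FC of -0.16.

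*Tfrc*, the transferrin receptor through which cells take up iron, was at 73.3, 87.9, 94.8 and 96.2 CPM at 4 hrs and at 42.2, 51.6, 59.0 and 45.3 CPM at 12 hrs (log2FC -0.83, SE 0.15, edgeR adjusted p = 3.03e-05). *Gpt2*, the mitochondrial alanine aminotransferase, was at 30.8 to 61.2 CPM and at 74.8 to 105 CPM (log2FC 0.91, SE 0.14, edgeR adjusted p = 1.28e-06). *Fbxo32*, a ubiquitin ligase subunit that FOXO factors induce in muscle, was at 10.5 to 24.8 CPM and at 30.6 to 39.5 CPM. These 3 were chosen after their values were seen, and each was called in the same direction in all 4 sets of wells.

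Among called genes with at least 10 counts on average, the highest log2FCs belonged to *Ripor3*, at 3.82 to 5.95 CPM at 4 hrs and at 12.5 to 27.9 CPM at 12 hrs (log2FC 1.95, SE 0.36, edgeR adjusted p = 6.09e-05), and *Brd3os*, an RNA transcribed opposite *Brd3*, at 2.18 to 6.11 CPM and at 13.3 to 19.7 CPM (log2FC 1.87, SE 0.37, edgeR adjusted p = 3.32e-04). The use of strand in the counting is not stated. At 4 hrs the wells held only 4 to 6 counts of *Ripor3* and 2 to 7 of *Brd3os*. DESeq2 gave no adjusted p for either gene, and neither passed the filter of 10 counts in every sample. The time effect of *Ripor3* was called with IFN-γ and with both factors, and not with Activin-A (log2FC 1.13, edgeR adjusted p = 0.0857). The time effect of *Brd3os* in the treated wells was 0.34, 1.02 and 0.97, and none of these was called. *mt-Co1* varied more than its change: it was at 302, 214, 461 and 284 CPM at 4 hrs and at 499, 317, 192 and 1132 CPM at 12 hrs, and it was not called (log2FC 0.75, edgeR adjusted p = 0.117).

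In the other lists, 0 of 17 SRF-linked actin genes and 0 of 2 cluster histones were called by edgeR or DESeq2, with 3 and 0 at an unadjusted p under 0.05. Of 21 lysosome genes *Ctsa* was lower, and it was called in only 1 of the 8 fits that left out a well. Of 23 ribosome biogenesis genes *Ddx21* and *Rrp9* were lower (log2FC -0.39 and -0.52). A positive log2FC was seen in 1 of the 23, with a list median of -0.13 beside -0.00 over all genes. Of 6 mitochondrial transcripts *mt-Nd2* was lower (log2FC -0.29). *Rrp9* was not called with DESeq2 or without replicate 3 at 12 hrs or replicates 2 or 3 at 4 hrs, and *mt-Nd2* not with DESeq2 or without replicate 4 at 4 hrs. The keratinocyte markers summed to 1.09 to 9.81 CPM.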
